A study of Neurospora crassa with 19 samples.

Results

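The genes described here encode 6 histone-deacetylating enzymes of the filamentous fungus Neurospora crassa: the deacetylase genes hda-2 (NCU02795), hda-3 (NCU00824) and hda-4 (NCU07018) and the sirtuin genes nst-1 (NCU04737), nst-2 (NCU00523) and nst-3 (NCU03059). They were taken by locus number from a count table of 9730 genes, and all 6 were found there. The series concerned dim-1 (NCU06484), a gene for a chromatin remodeler, and 2 of its 19 samples are used here. Both hold poly-A RNA from strain N5801. Its labels give a complete deletion of dim-1, and germinated conidia as the material, grown for 16 h at 32 °C in Vogel's medium with 1.5% sucrose. Wild-type RNA was not analysed here, so the values give levels within the dim-1 strain and the spread between its libraries, with no comparison of genotypes.

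Acetyl groups on histone lysines loosen the hold of histones on DNA and serve as docking sites for other proteins, and deacetylases take them off. The enzymes named hda belong to the classical family, which uses zinc for catalysis, whereas sirtuins, named after yeast Sir2, consume NAD+ in the same reaction and so depend on the metabolic state of the cell. In Neurospora, deacetylation is tied to heterochromatin: HDA-1, another classical enzyme, acts in a complex with heterochromatin protein 1, and sirtuins take part in silencing near telomeres.

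Gene counts added up to 17364963 in replicate 1 and 13632746 in replicate 2, so that a single count was worth 0.0576 CPM (counts-per-million of a library) in replicate 1 and 0.0734 CPM in replicate 2. The labels do not say whether the 2 RNA samples came from separate cultures, and the spread between them may be technical. The targeted gene dim-1 had 258 counts in replicate 1 and 171 in replicate 2, although the libraries carry the label of its deletion. Counts per gene do not show which stretch of dim-1 these reads came from. Of the genes active in asexual spores, con-6 (NCU08769) had 1.21 CPM in replicate 1 and 2.05 in replicate 2, and con-10 (NCU07325) had 25.9 and 5.87. Each of the 6 deacetylase and sirtuin genes reached the detection minimum of 10 counts in both libraries, as did 7775 of the 9730 genes.

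hda-2 had the fewest reads of the 3 deacetylase genes. It encodes a protein related to yeast Hos2, the deacetylase of a complex that works on transcribed genes. It had 70 counts in replicate 1 and 39 in replicate 2, or 4.03 CPM (exact Poisson 95% interval 3.14 to 5.09) and 2.86 CPM (2.03 to 3.91). These intervals cover counting error only, and here they overlapped. The mean was 3.45 ± 0.828 CPM (SD, n = 2). In the exact binomial test on reads, adjusted over all genes tested, hda-2 did not pass (1.35-fold higher in replicate 1, adjusted p = 0.211).

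hda-3 encodes the relative of yeast Rpd3, the catalytic subunit of general corepressor complexes. It had 167 counts in replicate 1 and 147 in replicate 2, or 9.62 CPM (8.21 to 11.2) and 10.8 CPM (9.11 to 12.7). The intervals overlapped, and hda-3 was the single gene among the 6 with the higher level in replicate 2. The level averaged 10.2 ± 0.824 CPM (SD, n = 2). The gene did not pass the exact binomial test (log2 ratio of replicate 1 over replicate 2 −0.22, adjusted p = 0.264).

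hda-4, related to yeast Hos3, had the most reads of the 3. It had 1270 counts in replicate 1 and 709 in replicate 2, or 73.1 CPM (69.2 to 77.3) and 52.0 CPM (48.2 to 56.0). The intervals were apart, with replicate 1 higher. The mean was 62.6 ± 14.9 CPM (SD, n = 2). The difference of 1.35-fold passed the exact binomial test (log2 ratio 0.44, adjusted p = 3.40e-10), but not edgeR's exact test, which allows for spread beyond counting error (adjusted p = 1). edgeR's test took its spread from the difference between these same libraries, so not passing it is no separate evidence for any gene here. The fold at hda-4 was of the same size as at hda-2, which had far fewer reads.

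Among the sirtuin genes, nst-1 had the most reads. Its protein is the closest of the family to yeast Sir2. It had 945 counts in replicate 1 and 633 in replicate 2, or 54.4 CPM (51.0 to 58.0) and 46.4 CPM (42.9 to 50.2). Replicate 1 was higher and the intervals did not overlap. The mean was 50.4 ± 5.65 CPM (SD, n = 2). The 1.13-fold difference passed the exact binomial test (adjusted p = 0.0373) and did not pass edgeR's exact test (adjusted p = 1).

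The other two sirtuin genes varied least of the 6 between the libraries. nst-2 had 449 counts in replicate 1 and 328 in replicate 2, or 25.9 CPM (23.5 to 28.4) and 24.1 CPM (21.5 to 26.8). Its mean was 25.0 ± 1.27 CPM (SD, n = 2), and the exact binomial test was not passed (1.03-fold, adjusted p = 0.739). nst-3 had 329 counts in replicate 1 and 234 in replicate 2, or 18.9 CPM (17.0 to 21.1) and 17.2 CPM (15.0 to 19.5). Its mean was 18.1 ± 1.26 CPM (SD, n = 2), and it did not pass either (1.06-fold, adjusted p = 0.585). Both genes were slightly higher in replicate 1, within overlapping intervals.

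**Figure D1:**
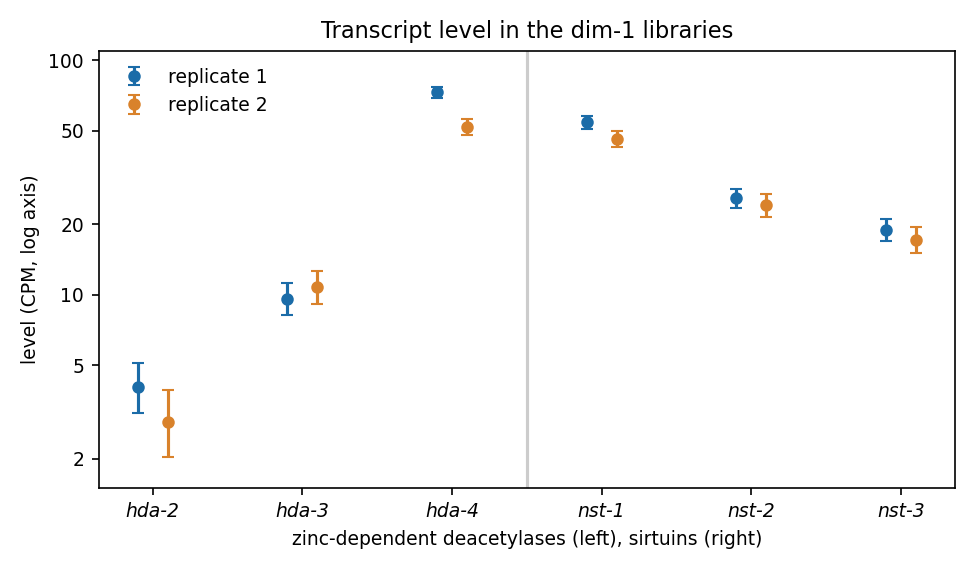
Level of each gene in CPM on a log axis, with replicate 1 left of replicate 2 and bars for the exact Poisson 95% interval of the count. The intervals of the 2 libraries are apart at hda-4 and nst-1 and overlap at the other genes, and hda-3 alone is higher in replicate 2.

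To set genes against each other, levels were divided by gene span, the distance between the ends of the gene in the RefSeq table, introns included. The spans were 1500 bases for hda-2, 3288 for hda-3, 4872 for hda-4, 3639 for nst-1, 2132 for nst-2 and 3104 for nst-3. Of all detected genes, the median had 13.3 CPM per kb in replicate 1 and 12.5 in replicate 2. On this scale the 6 genes fell into an upper set near that median and a lower set below it.

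nst-1, hda-4 and nst-2 made up the upper set. nst-1 had 15.0 CPM per kb in replicate 1 and 12.8 in replicate 2 (13.9 ± 1.55; SD, n = 2). hda-4 had 15.0 and 10.7 CPM per kb (12.8 ± 3.07), and nst-2 had 12.1 and 11.3 (11.7 ± 0.596). The range of hda-4 over the libraries overlapped those of nst-1 and nst-2, so hda-4 cannot be placed above or below either. Ranked among detected genes, nst-1 lay at percentile 53.8 for replicate 1 and 50.7 for replicate 2, hda-4 at 53.9 and 45.8, and nst-2 at 47.1 and 47.5.

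The sirtuin gene nst-3 and the deacetylase genes hda-3 and hda-2 followed, each with a range over the libraries that did not overlap that of the gene above it. nst-3 had 6.10 CPM per kb in replicate 1 and 5.53 in replicate 2, and nst-2 above it was 1.99-fold and 2.04-fold higher. hda-3 had 2.92 and 3.28 CPM per kb, and nst-3 stood 2.09-fold and 1.69-fold above it. hda-2 was lowest with 2.69 and 1.91 CPM per kb, below hda-3 in both libraries. The gene dim-1, labelled as deleted, had 1.92 CPM per kb in replicate 1 (counting interval 1.69 to 2.17). In replicate 2 dim-1 had 1.62 (1.39 to 1.88), where the interval of hda-2 was 1.36 to 2.61. The counting intervals of hda-2 and dim-1 thus overlapped in both libraries. In replicate 1 hda-3 exceeded hda-2 by only 1.09-fold, and the counting intervals, 2.50 to 3.40 for hda-3 and 2.09 to 3.40 for hda-2, overlapped. Their percentiles among detected genes were 28.5 and 29.4 for nst-3, 14.2 and 19.0 for hda-3, and 13.1 and 11.5 for hda-2. From nst-1 to hda-2 the mean level per kb differed 6.03-fold.

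The remaining members of both families gave the context for these levels. The classical family has 1 further gene, hda-1 (NCU01525), with 12.6 CPM per kb in replicate 1 and 11.4 in replicate 2. In replicate 1, hda-4 held 45.2% of the summed level per kb of the 4 classical genes and hda-1 held 37.8%. In replicate 2, hda-4 held 39.2% and hda-1 held 41.8%. There the counting intervals per kb overlapped, 9.90 to 11.5 for hda-4 and 10.5 to 12.3 for hda-1, so the order of these genes was not resolved in replicate 2. hda-3 held 8.81% in replicate 1 and 12.0% in replicate 2, and hda-2 held 8.10% and 7.00%. The 2 Rpd3- and Hos2-related genes were thus the 2 lowest classical genes in both libraries.

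Of the 7 sirtuin genes, nst-1, nst-2 and nst-3 ranked 3, 4 and 5 by level per kb in both libraries. In replicate 2 the order of nst-1 and nst-2 was not resolved, with overlapping counting intervals of 11.8 to 13.8 and 10.1 to 12.6. nst-5 (NCU00203) was highest, with 48.2 CPM per kb in replicate 1 and 60.3 in replicate 2, which was 47.0% and 54.8% of the family's sum. nst-4 (NCU04859) came next with 15.2 and 16.0 CPM per kb. In replicate 1 it was not resolved from nst-1, with counting intervals of 14.3 to 16.0 for nst-4 and 14.0 to 15.9 for nst-1. nst-1 held 14.6% and 11.6% of the sum, nst-2 held 11.8% and 10.2%, and nst-3 held 5.94% and 5.02%. Below them stood nst-6 (NCU05973) with 4.09 and 2.82 CPM per kb and nst-7 (NCU07624) with 2.03 and 1.46. The shares add up to each family's own total and say nothing about enzyme amounts.

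**Figure D2:**
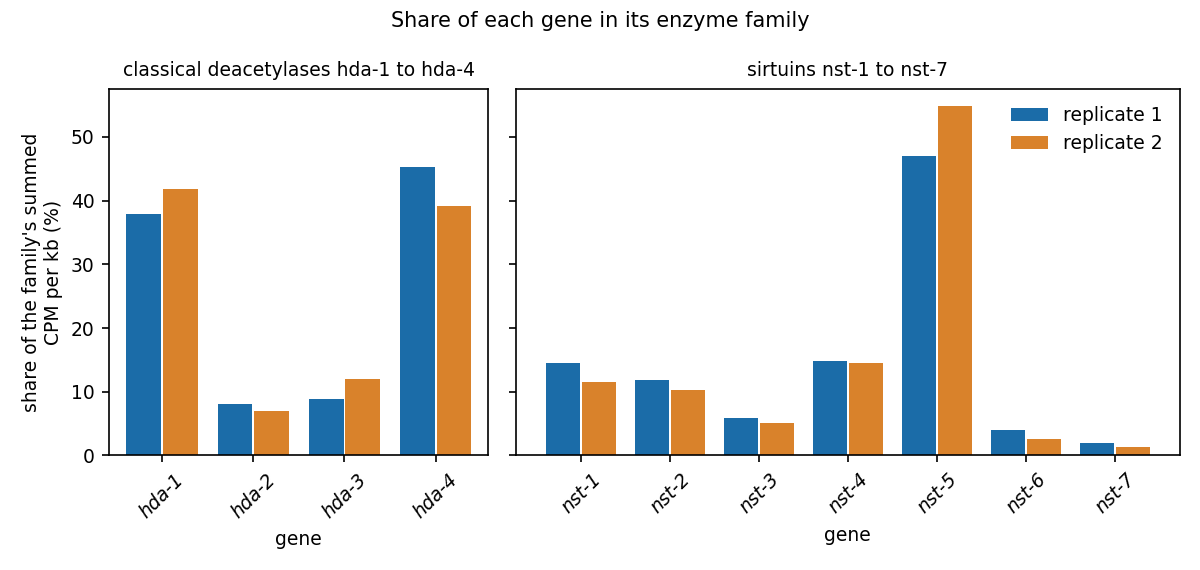
Share of each gene in the summed CPM per kb of its family (vertical axis, percent), with replicate 1 left of replicate 2. hda-4 and hda-1 exceed hda-2 and hda-3 in both libraries, and nst-5 holds 47.0% of the sirtuin sum in replicate 1 and 54.8% in replicate 2.

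The context lists of acetyltransferases, HDA-1 partners and corepressors covered a wide range of levels. Of the 7 histone acetyltransferase genes, 6 had mean levels per kb from 9.75 (hat-5, NCU02249) to 16.4 (hat-2, NCU02556), including 15.7 ± 0.00566 CPM per kb (SD, n = 2) for ngf-1 (NCU10847), the relative of yeast Gcn5. The exception was hat-6 (NCU04782) with 4.55 ± 0.0477. The SDs of ngf-1 and hat-6 were far smaller than their counting error. For ngf-1 the counting intervals were 14.6 to 16.8 CPM per kb in replicate 1 and 14.5 to 16.9 in replicate 2. For hat-6 they were 4.14 to 5.06 and 4.03 to 5.06. Among the partners of HDA-1, hpo (NCU04017), the gene of heterochromatin protein 1, had 20.8 ± 2.14 CPM per kb, cdp-2 (NCU00738), a chromodomain protein gene, 8.64 ± 0.782 and chap (NCU01796) 11.6 ± 2.81. The corepressor genes were far higher, with 115.5 ± 2.34 CPM per kb for rco-1 (NCU06205), the relative of yeast Tup1, and 40.3 ± 2.14 for rcm-1 (NCU06842), the relative of Ssn6. In yeast, Tup1 and Ssn6 act in part through deacetylases of the Rpd3, Hos2 and Hda1 kinds.

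**Figure D3:**
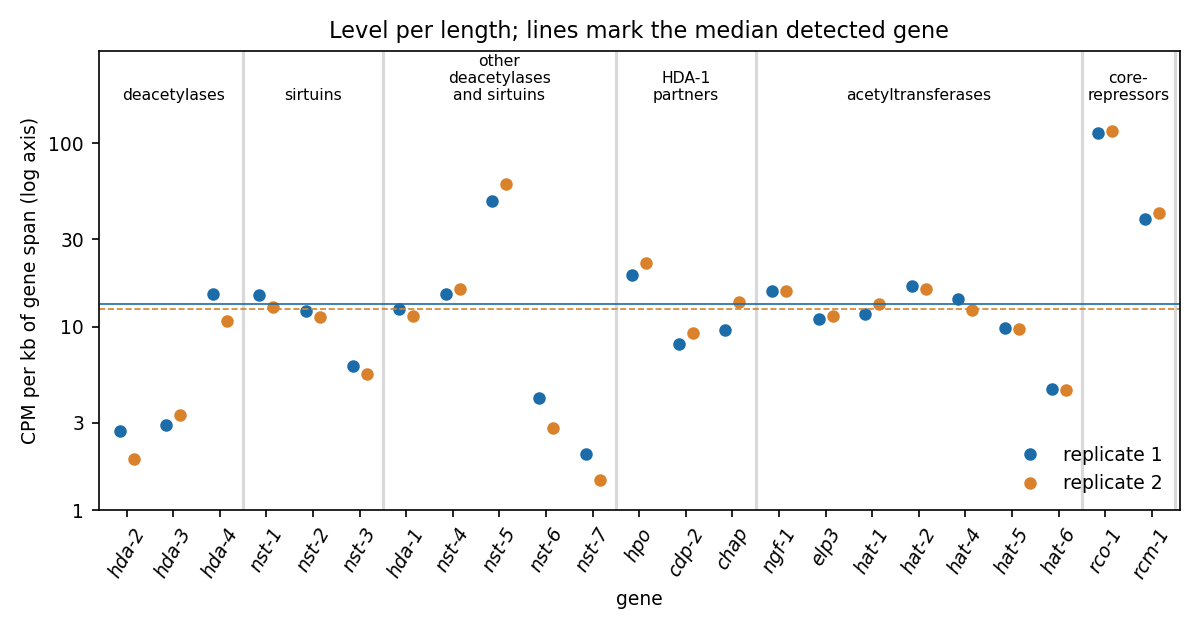
CPM per kb of gene span on a log axis for the 6 genes and the 17 genes of the context lists, with a point per library and horizontal lines at the median detected gene (solid, replicate 1; dashed, replicate 2). hda-2 and hda-3 lie near the bottom with nst-7 and nst-6, and nst-1, nst-2 and hda-4 lie near the lines.

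Between the libraries, 0 of the 6 genes were called by the exact binomial test, which required both an adjusted p under 0.05 and a 2-fold difference, where 6.15% of the 7898 genes tested were called. Without the 2-fold minimum, 2 of the 6, hda-4 and nst-1, passed with a higher level in replicate 1, where 28.2% of all genes tested did so. In the other direction 0 of the 6 passed, against 29.1% of all genes tested. At an unadjusted p under 0.05 the count was also 2 of 6, where 60.8% of all genes tested passed. edgeR's exact test passed 0 of the 6 and 0.646% of all genes tested, and at an unadjusted p under 0.05 it passed 0 of the 6 and 5.44% of all genes tested. Because the spread in edgeR's test came from the difference between the same libraries, a gene with a usual difference could hardly pass it. As the exact binomial test sets reads of single libraries against each other, it says nothing about conditions, and it takes each read as independent.

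Of the 6 genes, 5 had a ratio above 0, that is, a higher level in replicate 1, under each of the 3 library scalings tried. With TMM scaling, 3934 of the 7898 genes tested also had a ratio above 0. The median log2 ratio of the 6 was 0.13, against −0.0017 over all genes tested. Scaled by total gene counts, these medians were 0.19 and 0.054. By size, the ratios of hda-4 and hda-2 were larger than those of 67.2% and 66.7% of genes tested, those of hda-3 and nst-1 larger than 39.9% and 32.2%, and those of nst-3 and nst-2 larger than 16.5% and 9.27%. The coefficient of variation between the libraries was 24.0% for hda-2, 23.9% for hda-4, 11.2% for nst-1, 8.08% for hda-3, 6.98% for nst-3 and 5.09% for nst-2. The coefficients of single genes are from CPM and include counting error. The common coefficient over genes by edgeR, 23.9%, leaves counting error out, so it is not a like measure. Of the 2 spore genes, con-10 was 4.23-fold higher in replicate 1 and passed edgeR's exact test (adjusted p = 0.0205), whereas con-6 had a log2 ratio of −0.81 and did not pass the exact binomial test (adjusted p = 0.0961). The part of such differences in the ratios of the 6 genes was not tested.

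**Figure D4:**
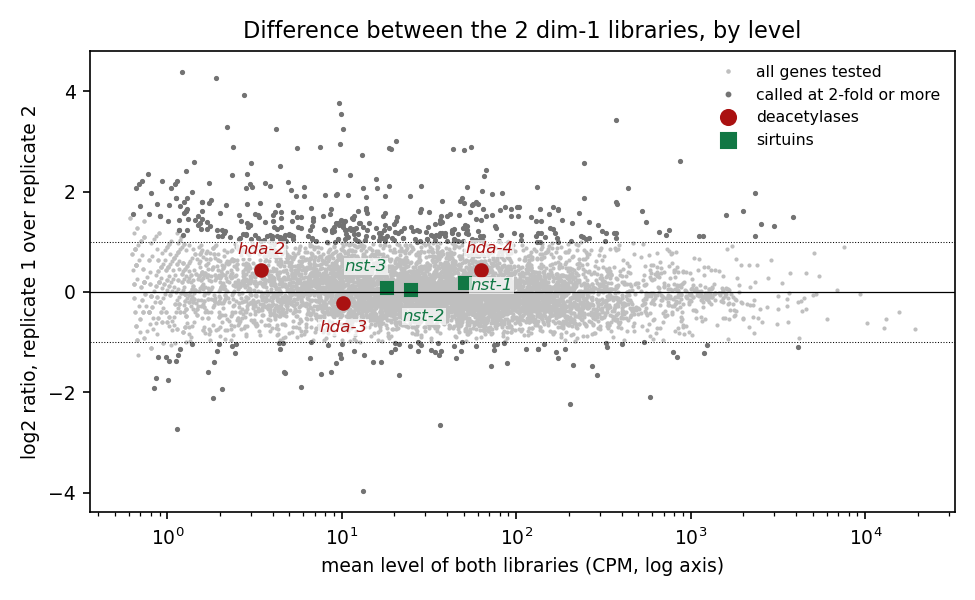
Log2 ratio of replicate 1 over replicate 2 against the mean CPM of both libraries (log axis) for every gene tested, with called genes darker and dotted lines at 2-fold. All 6 deacetylase and sirtuin genes lie between the dotted lines, from −0.22 for hda-3 to 0.44 for hda-4.

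The direction of the differences varied among the context lists, and the counts below stand against 28.2% of all genes tested that passed with replicate 1 higher and 29.1% with replicate 2 higher. Of the 5 other deacetylase and sirtuin genes, nst-6 passed the exact binomial test with a higher level in replicate 1 (adjusted p = 0.0387), and nst-4 and nst-5 passed in the other direction (adjusted p = 0.0453 and 2.01e-12). The smallest adjusted p of these was at nst-5, with 89.4 CPM in replicate 1 and 112 CPM in replicate 2. All 3 partners of HDA-1 passed the exact binomial test with a higher level in replicate 2 (adjusted p = 8.45e-04 for hpo, 0.0479 for cdp-2 and 3.80e-07 for chap), as did both corepressor genes (7.75e-04 for rco-1 and 7.79e-05 for rcm-1). Of the 7 acetyltransferase genes, hat-1 (NCU06472) alone passed, also higher in replicate 2 (1.18-fold, adjusted p = 0.00784). Scaled by total gene counts instead, nst-4, cdp-2 and rco-1 no longer passed, while the direction of these 3 genes was kept. None of the 17 context genes was called at 2-fold by the exact binomial test, where 6.15% of all genes tested were. edgeR's exact test passed 0 of the 17 (0 at an unadjusted p under 0.05), where 0.646% of all genes tested passed (5.44% unadjusted).

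The genes on either side of each member on the chromosome were also measured. In the RefSeq table of assembly NC12, hda-2, hda-3, nst-2 and nst-3 lie on linkage group I, hda-4 on IV and nst-1 on VI, and no member overlapped the gene on either side. Of the 12 neighbouring genes 11 were counted, and the other was a tRNA gene beside nst-1. hda-3 lay between NCU00825, with 1.97 CPM per kb in replicate 1 and 1.37 in replicate 2, and rpn-11 (NCU00823), a proteasome subunit gene, with 38.2 and 61.0. rpn-11 and hda-3 were both higher in replicate 2, but only rpn-11 passed the exact binomial test (log2 ratio −0.73, adjusted p = 2.88e-40). hda-4 lay between NCU07017, with 145 ± 16.7 CPM per kb (SD, n = 2), and csn-6 (NCU07019), a gene of the COP9 signalosome, with 17.7 ± 1.17. nst-1 had the calcium pump gene nca-2 (NCU04736) on one side, with 42.6 ± 12.7 CPM per kb, higher in replicate 1 by 1.47-fold (adjusted p = 5.97e-62 in the exact binomial test).

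The neighbours of nst-3, nst-2 and hda-2 reached at most the level of crf6-1 (NCU03060), a chromatin remodeler gene beside nst-3, with 12.8 ± 1.61 CPM per kb (SD, n = 2). On its other side nst-3 had NCU03058 with 7.03 ± 0.139. nst-2 stood above both of its neighbours, NCU00524 with 0.830 ± 0.0580 and NCU16457 with 3.56 ± 0.369 CPM per kb. hda-2 stood below both of its own, NCU02796 with 6.43 ± 0.558 and NCU16490 with 6.18 ± 1.21. Of the 11 neighbours counted, 0 were called at 2-fold by the exact binomial test, where 6.15% of all genes tested were. Without the 2-fold minimum, 4 passed with replicate 1 higher (nca-2, NCU07017, NCU16490 and crf6-1) and 2 with replicate 2 higher (rpn-11 and csn-6), where 28.2% and 29.1% of all genes tested did so. csn-6 thus passed in the direction opposite to hda-4 (log2 ratio −0.19, adjusted p = 0.0323 in the exact binomial test), and NCU07017 in the same direction (0.18, adjusted p = 2.93e-07).

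The gene with a symbol that lay closest to each of the 6 in log2(CPM + 1) over the 2 libraries was sought among 1117 candidates. For hda-2 it was the sirtuin gene nst-7, with 3.97 CPM in replicate 1 and 2.86 in replicate 2. For hda-3 it was ro-10 (NCU10696; 9.91 and 10.5 CPM), for hda-4 fkr-4 (NCU03241; 74.9 and 53.3), for nst-1 pco-1 (NCU07669; 54.6 and 48.1), for nst-2 stk-51 (NCU08177; 26.0 and 24.1) and for nst-3 mus-41 (NCU09516; 19.0 and 17.5). The distances ran from 0.0093 for nst-2 to 0.053 for hda-3 on the log2 scale. With 2 libraries of the same strain, such closeness describes the level alone.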

How the data were processed

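The files deposited by the authors give unnormalized read counts per gene locus, 1 file for each of the 2 poly-A RNA libraries. Per the submitters' processing notes, the series used Bowtie, Bowtie2, TopHat, SAMtools, HTSeq and DESeq, without roles or versions. The sources used here do not give the build, the annotation or the strand setting of the counting, so antisense reads cannot be told from a gene's own. The 5 rows without a gene were left out of library sizes (reads outside genes 6.72% in replicate 1 and 6.64% in replicate 2, multiply aligned 3.41% and 2.48%, ambiguous 0.0728% and 0.0771%). Names and spans came from the RefSeq table of assembly NC12, which held 9729 of 9730 loci.

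CPM used all gene counts. Genes entered the test from a sum of 20 counts. A two-sided exact binomial test on reads compared the replicate 1 share with the TMM-scaled library share (edgeR 4.0.16, R 4.3.3), with Benjamini-Hochberg adjustment over all 7898 genes. Genes were called at an adjusted p under 0.05 and 2-fold, and 0.5 counts were added for ratios. edgeR's exact test used the common dispersion of the same 2 libraries, estimated with both in 1 group. The difference tested thus also set the spread, and a failure to pass is no separate evidence. With 1 group, no quasi-likelihood test could be made. Other settings were DESeq2 1.42.0 size factors, total counts, other count minimums and each library alone. The remaining steps used Python 3.11.15 and scipy 1.17.1. The binomial test was tried on simulated counts with counting error only, so that trial does not cover the wider spread of these libraries. Members and lists were chosen with earlier results of these data known. Named genes are the members, dim-1, con-6 and con-10 (added later), neighbours, the closest gene in level, and 17 of the genes listed by symbol. The symbols rtt109, esa1 and sin3 had no match in the table. The other 17 samples were not analysed here.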

Additional observations from a re-analysis of the deposited data

How the results depend on the processing

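The count of the 6 genes called at 2-fold was 0 under all 5 alternatives to the exact binomial test as reported, which called 6.15% of all genes tested. The count passing without the 2-fold minimum was 2 (hda-4 and nst-1) under both other scalings and both other count minimums. In the test as reported, 4527 of the 7898 genes tested passed without that minimum. With edgeR's exact test, whose common spread of 23.9% came from the same libraries, the count was 0 of the 6. The number of all genes called at 2-fold was 486 of 7898, and 51 with edgeR's exact test. Of 24 recomputed log2 ratios none changed sign, and the 2 that lost the threshold were hda-4 and nst-1 in edgeR's exact test. The highest over the lowest level per kb ran from 5.59 without replicate 2 to 6.69 without replicate 1, and came to 18.2 with no division by length. Without replicate 2 or without length, hda-4 stood above nst-1, and without replicate 1, nst-2 stood above hda-4. With TMM-scaled library sizes all 6 mean levels moved by less than the SD, and with a single library each mean is that library's own level. Among acetyltransferase genes, 2 of 7 had a higher level in replicate 1, and 5 of 7 when scaled by total counts. The same change of scaling moved the median log2 ratio over all genes tested from −0.0017 to 0.054. The planned division by coding length was not run. Depth limits hda-2 most, with 39 counts in replicate 2. No paired analysis was possible because the RNA libraries form a single group.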
